A study of Mus musculus with 90 samples.

Results

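The regions described here are differentially methylated regions (DMRs) of mouse embryonic stem cells (ESCs) that were called from short-read bisulfite sequencing and then removed because long Nanopore reads did not show enough of the same methylation difference. They were found by comparing the list of DMRs before filtering with the list after it and taking every region that overlapped no filtered DMR by 1 bp or more. Of 2573 numbered DMRs, 1515 were kept, and the gaps in the numbering give 1058 removed. The list before filtering was held here only in part, up to a point on chromosome 5, so that coordinates were held for 856 removed DMRs, 80.9% of those removed. The 1143 kept DMRs of the same chromosomes served as their counterpart. They include any DMR with too few informative CpGs in the Nanopore reads to be assessed, and no Nanopore value per DMR was used here.

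The DMRs compare 2 lines of J1 ESCs that both lack active Dnmt3a and Dnmt3b. TKOL, a clonal line, also carries an excisable shRNA against Dnmt1, and DKO0 is the same line after Cre removed the shRNA, sampled for the DMRs at passage 15, with a single bisulfite library per line. Peak lists from chromatin immunoprecipitation of H3K9me3, Uhrf1 and Trim28 were available for both lines and for wild-type (WT) V65 ESCs, with 2 replicates each, and the labels give no passage for them. In the names of the DKO0 peak lists, Uhrf1 is marked p3 and the other marks p5, so that these cells may be of an earlier passage than those of the DMRs. For Uhrf1, the lines carried a FLAG tag on the endogenous protein. The WT cells differ from the other lines in strain as well as in genotype, which cannot be told apart here. Each mark had 8 lists, namely a pooled list for DKO0 and for TKOL and 6 single-replicate lists.

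Dnmt1 copies methylation onto the new DNA strand after replication, and Uhrf1 brings it to hemimethylated CpGs and to H3K9 methylation. Trim28 (also known as Kap1) is recruited by KRAB zinc finger proteins to retrotransposons, where it brings in the methyltransferase that lays down H3K9me3. Intracisternal A particles (IAPs) are young endogenous retroviruses of the mouse and a well known target of this repression in ESCs.

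The sequences below show what the removed DMRs hold. The first is the densest 200 bp of CpGs in the removed DMR whose table value is highest among those ranked, DMR_1686, at chr3:132716611-132716810 (mm9, plus strand) within an intron of Gstcd. The second is the same for DMR_1939, at chr5:38525401-38525600 (mm9, plus strand). Among the ranked removed DMRs that have all 3 marks, it has the highest H3K9me3 enrichment in the pooled DKO0 list. These rankings leave out a single chromosome, as given with the methods. CpGs are in capitals.
DMR_1686: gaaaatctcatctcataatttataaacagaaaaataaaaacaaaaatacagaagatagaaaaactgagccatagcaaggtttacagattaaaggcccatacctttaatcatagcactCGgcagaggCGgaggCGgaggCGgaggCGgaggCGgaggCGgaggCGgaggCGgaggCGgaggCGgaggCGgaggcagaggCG
DMR_1939: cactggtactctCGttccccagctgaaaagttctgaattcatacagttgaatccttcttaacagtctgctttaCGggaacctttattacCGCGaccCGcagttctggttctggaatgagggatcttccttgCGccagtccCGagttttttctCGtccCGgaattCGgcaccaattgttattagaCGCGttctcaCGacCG
The window of DMR_1686 ends in a short tandem repeat and holds 13 of the 25 CpGs of a 3000-bp region, while that of DMR_1939 holds 14 of 108 CpGs. The third is the part before the linker of the study's original reference for the hairpin amplicon of IAPEz, a family of IAP elements. The study shortened that reference for its own mapping. This part, called the IAPEz reference here, is shown because its words occurred in a smaller share of removed than of kept DMRs, as given below.
IAPEz: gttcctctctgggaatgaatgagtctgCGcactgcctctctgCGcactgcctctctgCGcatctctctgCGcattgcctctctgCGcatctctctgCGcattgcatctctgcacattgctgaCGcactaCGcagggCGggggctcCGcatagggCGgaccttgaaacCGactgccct

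The removed DMRs were short. Their length had a median of 1250 bp (interquartile range 1000 to 2000) and reached 12250 bp, against a median of 2000 bp (1000 to 3500) and a highest length of 68000 bp in kept DMRs. A length of 1000 bp, the smallest in the table, was found in 418 of 856 removed DMRs (48.8%, 95% Wilson interval 45.5 to 52.2) and in 295 of 1143 kept DMRs (25.8%, 23.4 to 28.4). Lengths over 2000 bp made up 21.3% (18.7 to 24.1) of removed and 43.5% (40.6 to 46.4) of kept DMRs. Since the table of DMRs before filtering was held only in part, no test was run between removed and kept DMRs, and the intervals cover counting error only.

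The value that the table gives for each DMR had a similar median in the 2 sets. The table does not name this value, which has the range of a methylation rate or difference. It had a median of 0.167 in removed (0.15 to 0.274) and of 0.170 in kept DMRs (0.15 to 0.298). The study called a region only where its methylation rate in DKO0 at passage 15 was over 0.15, and the low end of both sets lies at this cut-off. Values under 0.16 were found in 32.6% (29.5 to 35.8) of removed and 23.6% (21.3 to 26.2) of kept DMRs, whose intervals do not overlap. Values of at least 0.2 were found in 7.01% (5.48 to 8.92) of removed and 9.19% (7.65 to 11) of kept DMRs, whose intervals overlap.

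Removed DMRs were found on every chromosome of the table. On the 14 chromosomes held in full, they made up between 37.5% (chromosome 16) and 54.5% (chromosome 19) of the DMRs, with a median of 44.1%. The nearest kept DMR lay at a median distance of 592375 bp from removed DMRs and of 359500 bp from other kept DMRs. It lay within 10000 bp of 8 removed (0.935%) and 39 kept DMRs (3.41%).

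The sequence of removed DMRs was less CpG-rich and far less repetitive than that of kept DMRs. They held a median of 16 CpGs, against 33 in kept DMRs. Per 100 bp this was 1.28 CpGs in removed and 1.80 in kept DMRs, and 0.700 in stretches of the genome of the same lengths, placed evenly along the same chromosomes. The study called DMRs only from windows that covered at least 10 CpGs, and these stretches had no such minimum. The excess of CpGs over stretches was thus set in part by the calling. Repetition was measured with words of 31 bp, counting on both strands how often each word of a region occurs in the genome. In the median removed DMR, 78.8% of words (interquartile range 40.1 to 97.2) occurred once in the genome. The median was 15.7% (1.44 to 54.7) in kept DMRs and 95.6% in stretches of the same lengths, so that removed DMRs lay between kept DMRs and the rest of the genome.

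More than 90% of words were found once in 348 removed DMRs (40.7%, 37.4 to 44) and in 108 kept DMRs (9.45%, 7.89 to 11.3). At the other end, under 10% of words were found once in 112 removed (13.1%, 11 to 15.5) and 495 kept DMRs (43.3%, 40.5 to 46.2).

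**Figure D1:**
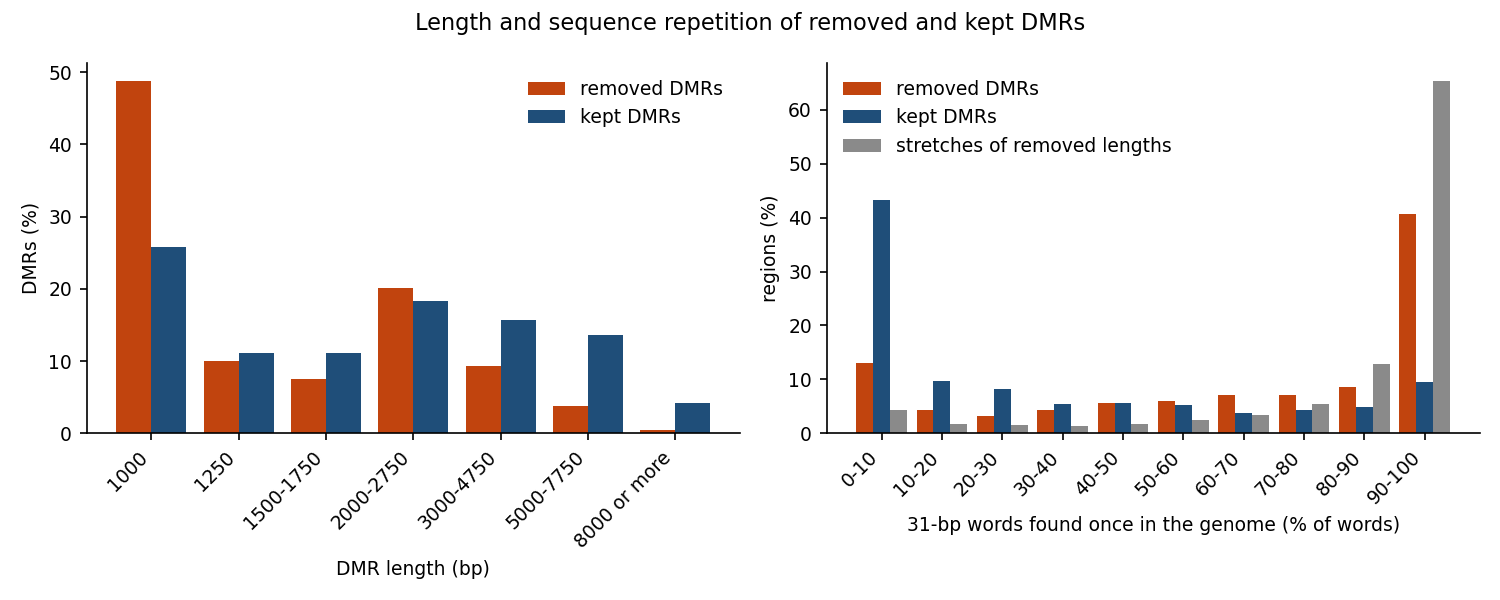
Percent of removed (red) and kept (blue) DMRs by length class in bp (left), and percent of regions by the share of their 31-bp words that occur once in the genome (right), with stretches of the removed DMRs' lengths in grey. The 1000-bp class holds 48.8% of removed DMRs, and the class of 90 to 100% unique words holds 65.4% of stretches, 40.8% of removed and 9.45% of kept DMRs.

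The most widespread words differed as well. They are given here with the DMR from which they were read.
Removed, from DMR_20 (chr1:14821635-14821665): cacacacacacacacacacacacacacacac
Kept, from DMR_5 (chr1:5737359-5737389): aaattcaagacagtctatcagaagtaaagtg
The first, a CA repeat with 1066995 copies in the genome, occurred in 88 removed (10.3%) and 51 kept DMRs (4.46%). The second has 2903 copies and occurred in 56 removed (6.54%) and 352 kept DMRs (30.8%). A word of the IAPEz reference shown above occurred in 52 removed DMRs (6.07%, 4.66 to 7.88) and 360 kept DMRs (31.5%, 28.9 to 34.2). A word of the IAP LTR amplicon reference, also only its part before the linker, occurred in 36 removed (4.21%, 3.05 to 5.77) and 90 kept DMRs (7.87%, 6.45 to 9.58).

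Removed DMRs lay in protein-coding genes more often than kept ones. A protein-coding gene of the GENCODE annotation was touched by 284 removed (33.2%, 30.1 to 36.4) and 215 kept DMRs (18.8%, 16.7 to 21.2), against 39.6% of stretches. For exons of these genes the shares were 7.83% in removed DMRs, 3.67% in kept DMRs and 11.8% in stretches.

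H3K9me3 was found at about every other removed DMR and at most kept DMRs. A peak of the pooled DKO0 list overlapped 408 removed DMRs (47.7%, 44.3 to 51) and 1022 kept DMRs (89.4%, 87.5 to 91.1), while 7.35% of stretches of the removed DMRs' lengths had one. In TKOL a peak was found at 394 removed (46%, 42.7 to 49.4) and 1007 kept DMRs (88.1%, 86.1 to 89.9), with 7.17% of stretches. The share of removed DMRs was thus 6.48 times that of stretches in DKO0 and 6.42 times in TKOL, and -41.8 and -42.1 percentage points away from that of kept DMRs.

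The single replicates kept this order at lower levels. In DKO0, 38% and 21.6% of removed DMRs had a peak in replicates 1 and 2, against 75.2% and 55.1% of kept DMRs. In TKOL these shares were 30.8% and 18% of removed and 70.5% and 49.5% of kept DMRs. In WT, 19.2% and 18.5% of removed DMRs had a peak against 55% and 52.9% of kept DMRs, and 1.88% of stretches over both lists. The removed share was below the kept share in all 8 H3K9me3 lists, with differences of -31.5 to -42.1 points.

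Trim28 peaks were about as enriched over stretches but less frequent. The pooled DKO0 list had a peak at 197 removed (23%, 20.3 to 25.9) and 646 kept DMRs (56.5%, 53.6 to 59.4), with 3.97% of stretches. The TKOL list had one at 204 removed (23.8%, 21.1 to 26.8) and 735 kept DMRs (64.3%, 61.5 to 67), with 3.99% of stretches. Single replicates gave 13% and 12.3% of removed DMRs in DKO0, 16.5% and 11.9% in TKOL, and 14.3% and 11% in WT, where 1.58% of stretches had a peak. All 8 lists had a lower share for removed than for kept DMRs.

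Uhrf1 peaks were the rarest in the mutant lines. They were found at 97 removed DMRs (11.3%, 9.38 to 13.6) and 459 kept DMRs (40.2%, 37.4 to 43) in the pooled DKO0 list, with 1.99% of stretches. In TKOL they were found at 119 removed (13.9%, 11.7 to 16.4) and 514 kept DMRs (45%, 42.1 to 47.9), with 2.7% of stretches. The single replicates had 7.36% and 4.21% of removed and 26.7% and 18.8% of kept DMRs in DKO0, and 7.94% and 6.19% of removed and 33.3% and 22.7% of kept DMRs in TKOL. The difference between removed and kept DMRs thus narrowed from -28.8 points in the pooled DKO0 list to -14.6 points without replicate 1, and in TKOL from -31.1 to -16.6 points. Where a peak had to cover 50% or more of a DMR, the difference was -1.49 points in both lines. In WT the shares were higher, at 19.7% and 27.7%, with 2.84% of stretches. The WT lists of Uhrf1 also held more peaks, 30134 and 49156 against 11440 to 17444 in the single replicates of the mutant lines, and the part of list size in this difference was not tested.

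**Figure D2:**
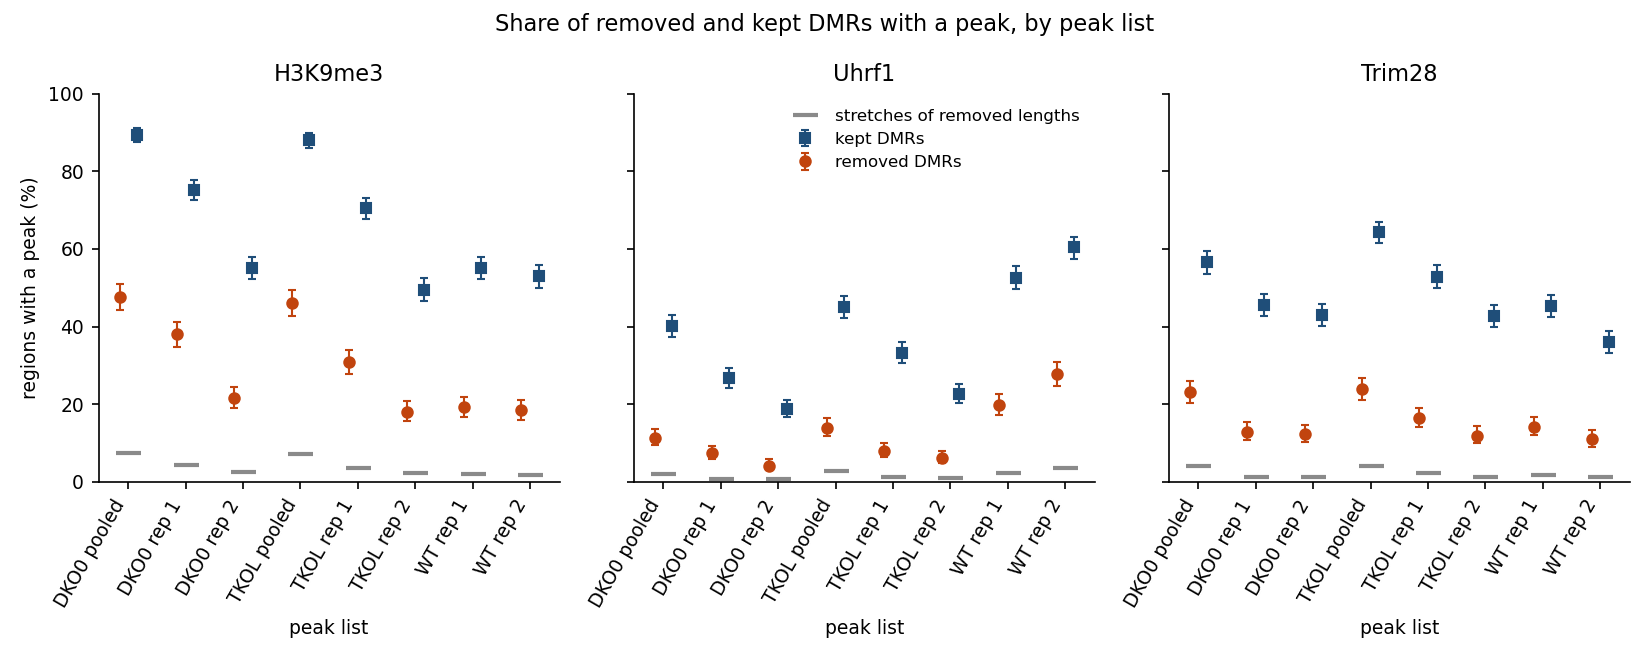
Percent of removed DMRs (red circles), kept DMRs (blue squares) and stretches of the removed DMRs' lengths (grey bars) with a peak, for each of the 24 peak lists. Error bars are 95% Wilson intervals, and in every list the removed DMRs lie above the stretches and below the kept DMRs.

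The order held along the genome. On each of the 14 complete chromosomes, the share of removed DMRs with a peak was below that of kept DMRs in all 6 pooled lists. For H3K9me3 in DKO0 the difference ranged from -32.4 to -57.8 points with a median of -43.8, for Trim28 in DKO0 from -19.5 to -47.7 points, and for Uhrf1 in DKO0 from -14.8 to -43.9 points.

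**Figure D3:**
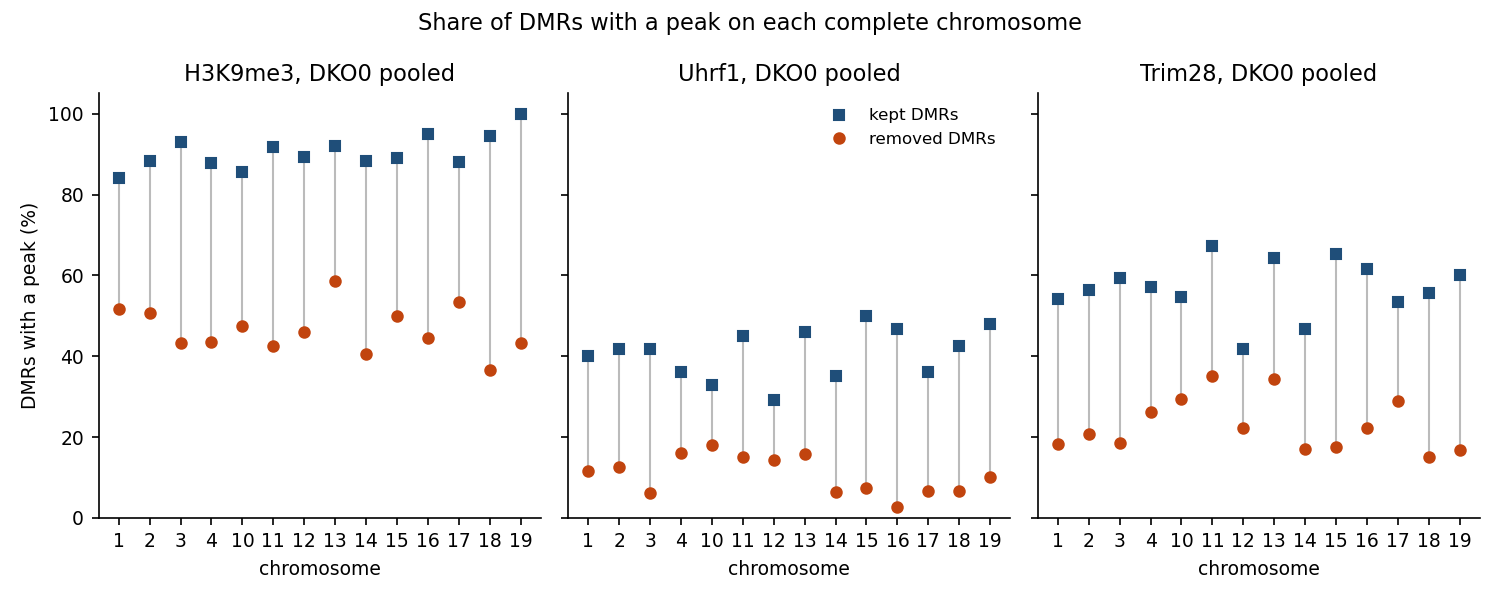
Percent of removed (red) and kept (blue) DMRs with a peak of the pooled DKO0 list, for the 14 chromosomes held in full. The red circle lies below the blue square on every chromosome for all 3 marks.

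DKO0 and TKOL, which differ in Dnmt1, differed at removed DMRs by less than the spread between replicates for all 3 marks. Over single-replicate lists, the mean share with an H3K9me3 peak was 29.8% in DKO0 and 24.4% in TKOL, a difference of 5.37 points with a pooled SD of 10.4 (n = 2 per line, exact two-sided permutation test, p = 0.667). For Uhrf1 the means were 5.78% and 7.07% (difference -1.29 points, SD 1.80, n = 2, exact permutation p = 0.667), and for Trim28 12.6% and 14.2% (difference -1.58 points, SD 2.30, n = 2, exact permutation p = 1). With 2 replicates per line the smallest p this test can give is 0.333, so it could not have passed a threshold of 0.05. Of the removed DMRs, 370 had an H3K9me3 peak in both pooled lists, 38 in DKO0 alone and 24 in TKOL alone. In stretches these shares were 5.77%, 1.58% and 1.40%, and 993, 29 and 14 kept DMRs had such peaks. For Trim28 the numbers were 172, 25 and 32 removed and 631, 15 and 104 kept DMRs, with 2.59%, 1.38% and 1.40% of stretches. For Uhrf1 they were 80, 17 and 39 removed and 416, 43 and 98 kept DMRs, with 1.03%, 0.968% and 1.68% of stretches.

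In the pooled DKO0 lists, most Trim28 and Uhrf1 peaks at removed DMRs came with H3K9me3. There, 5 of 197 removed DMRs with Trim28 and 3 of 97 with Uhrf1 lacked an H3K9me3 peak, which is 0.584% and 0.350% of removed DMRs against 1.27% and 1.20% of stretches. H3K9me3 alone was found at 205 removed DMRs (23.9%), 358 kept DMRs (31.3%) and 4.41% of stretches. H3K9me3 with Trim28 but without Uhrf1 was found at 109 removed (12.7%) and 206 kept DMRs (18%). H3K9me3 with Uhrf1 but without Trim28 was found at 11 removed (1.29%) and 22 kept DMRs (1.92%). The last 2 combinations were not counted for stretches. The single-replicate WT lists had another order, since Uhrf1 was found at 169 and 237 removed DMRs and H3K9me3 at 164 and 158. Stretches had the same order in WT, with 2.84% for Uhrf1 and 1.88% for H3K9me3. The mean share of removed DMRs was 8.35 times that of stretches for Uhrf1 and 10 times for H3K9me3. All 3 marks were found at 83 removed DMRs (9.70%, 7.89 to 11.9) in DKO0, where 0.556% of stretches had them, and at 436 kept DMRs (38.1%, 35.4 to 41). In TKOL they were found at 110 removed DMRs (12.9%, 10.8 to 15.3), with 0.778% of stretches, and at 501 kept DMRs (43.8%). Both pooled lists of all 3 marks covered 74 removed DMRs (8.64%), which was not counted for kept DMRs or stretches. Among DMRs with H3K9me3 in DKO0, Trim28 was found at 192 of 408 removed (47.1%, 42.3 to 51.9) and 642 of 1022 kept DMRs (62.8%, 59.8 to 65.7), and Uhrf1 at 23% (19.2 to 27.4) and 44.8% (41.8 to 47.9).

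None of the 3 marks was found at 440 removed DMRs (51.4%, 48.1 to 54.7) and 116 kept DMRs (10.1%, 8.53 to 12) in DKO0, and at 90.2% of stretches. Over all 24 lists, 359 removed DMRs (41.9%) had no peak in any, against 79 kept DMRs (6.91%), and the median removed DMR had a peak in 1 list against 12 for kept DMRs. Stretches were not counted over all 24 lists. Peaks in at least 18 lists were counted for removed DMRs only. The 359 DMRs without a peak had a median length of 1000 bp, a median of 96.3% unique words and no word of the IAPEz reference, and 155 of them (43.2%) touched a protein-coding gene. Both shares were near those of stretches of the removed DMRs' lengths, which had a median of 95.6% unique words and touched such a gene in 39.6%. The 80 removed DMRs with a peak in at least 18 lists had a median length of 4250 bp, 2.70% unique words and 2.03 CpGs per 100 bp, and 51 of them held an IAPEz word. The median table value was 0.166 in the former and 0.171 in the latter.

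The share with a peak followed the sequence. The study states that short reads of repeats can align to several places, and it names no filter of such reads for ChIP. The part of such reads in these shares was not tested. All 112 removed DMRs with under 10% unique words had an H3K9me3 peak in both pooled lists, as did 96.2% of 495 such kept DMRs and 51.1% of such stretches in DKO0. In this class Trim28 was found at 83.9% (76 to 89.6) of removed and 84.2% (80.8 to 87.2) of kept DMRs in DKO0, whose intervals overlap, while 40.2% of stretches of this class had it. Uhrf1 was found at 45 removed (40.2%, 31.6 to 49.4) and 293 kept DMRs (59.2%, 54.8 to 63.4), whose intervals do not overlap, and at 10.2% of stretches. With over 90% unique words, H3K9me3 was found at 38 of 348 removed DMRs (10.9%, 8.06 to 14.6), 60 of 108 kept DMRs (55.6%, 46.2 to 64.6) and 1.90% of stretches. In this class Trim28 was found at 7 removed (2.01%) and 2 kept DMRs (1.85%) and 0.692% of stretches in DKO0. Uhrf1 was found at 3 removed DMRs (0.862%), near the 0.917% of stretches, and at 0 of 108 kept DMRs, which allows a share of up to 3.43% by the Wilson interval. More than every other kept DMR of this class thus had H3K9me3, and most removed DMRs had none of the marks.

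The difference in H3K9me3 was as wide at equal length. Among DMRs of 1000 bp with over 90% unique words, a peak in DKO0 was found at 8 of 207 removed DMRs (3.86%, 1.97 to 7.44), 28 of 54 kept DMRs (51.9%, 38.9 to 64.6) and 1.64% of stretches. In TKOL these were 10 removed (4.83%, 2.65 to 8.66) and 26 kept DMRs (48.1%, 35.4 to 61.1), with 1.30% of stretches.

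**Figure D4:**
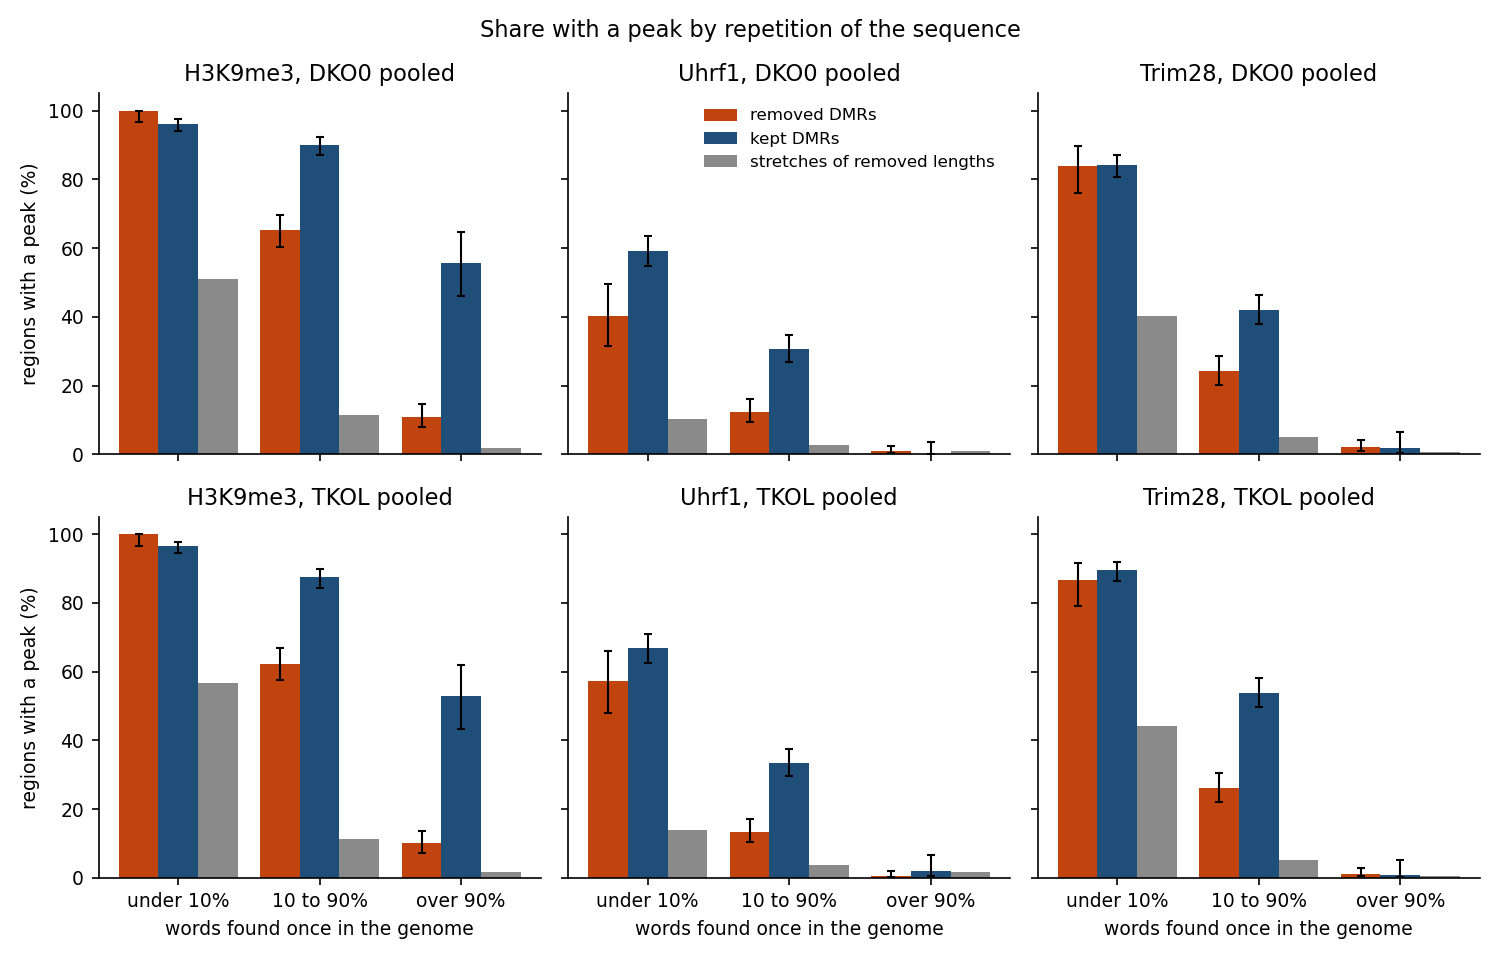
Percent of removed DMRs (red), kept DMRs (blue) and stretches of the removed DMRs' lengths (grey) with a peak of the pooled lists, by the share of 31-bp words found once in the genome. Error bars are 95% Wilson intervals. Red and blue bars are close for H3K9me3 and Trim28 under 10%, and H3K9me3 shows the widest gap over 90%.

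The sets were closest at IAP sequence. All 52 removed and all 360 kept DMRs with an IAPEz word had an H3K9me3 peak in both lines. Stretches were not split by IAPEz words, so whether other copies of this sequence have such shares was not tested. Trim28 was found at 52 removed and 358 kept DMRs in each line, and Uhrf1 at 44 removed (84.6%) and 303 kept DMRs (84.2%) in DKO0. Without an IAPEz word, H3K9me3 was found at 356 of 804 removed (44.3%, 40.9 to 47.7) and 662 of 783 kept DMRs (84.5%) in DKO0, and Uhrf1 at 6.59% and 19.9%.

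By length, the share with an H3K9me3 peak in DKO0 was 36.1% (31.7 to 40.8) of removed DMRs of 1000 bp, 45.3% (39.3 to 51.4) of those over 1000 and up to 2000 bp and 77.5% (70.9 to 82.9) over 2000 bp, against 85.4%, 85.2% and 94.8% of kept DMRs. By table value there was no such order: the share was 44.4% (38.7 to 50.3) of removed DMRs under 0.16, 51.1% (46.8 to 55.3) from 0.16 to 0.2 and 33.3% (22.7 to 45.9) of 60 removed DMRs from 0.2 upwards. Inside protein-coding genes it was 29.2% of removed and 80.0% of kept DMRs, and outside them 56.8% and 91.6%. Stretches were not split by these classes alone, so the part of length itself in the order by length was not tested. Over all removed and all kept lengths, 7.35% and 9.13% of stretches had an H3K9me3 peak in DKO0.

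In the pooled lists, the peaks at removed DMRs were lower than those at kept DMRs for H3K9me3 and Trim28, which the single-replicate lists did not show for H3K9me3. The highest H3K9me3 peak in DKO0 had a median fold enrichment over background of 4.17 (interquartile range 3.00 to 6.88) at removed and 6.57 (3.96 to 9.86) at kept DMRs. All H3K9me3 peaks of this list together covered a median of 82.2% of the length of removed and 100% of that of kept DMRs with a peak. In TKOL the median fold enrichments were 4.56 and 6.75. The order was the opposite in all 6 single-replicate H3K9me3 lists, with medians at removed and kept DMRs of 2.58 and 2.35 and of 3.38 and 3.12 in DKO0, of 2.75 and 2.52 and of 3.53 and 3.41 in TKOL, and of 2.95 and 2.82 and of 3.07 and 2.90 in WT. These lists have fewer and narrower peaks, and the part of this in the order was not tested. For Trim28 the median was 5.77 at removed and 9.30 at kept DMRs in DKO0, and 4.92 and 6.12 in TKOL. The single-replicate Trim28 lists kept this order except for TKOL replicate 2, with 5.07 at removed and 4.98 at kept DMRs. For Uhrf1 it was 2.93 and 2.94 in DKO0 and 3.03 and 3.13 in TKOL, close to the median of all peaks in these lists, 2.59 and 2.82. Uhrf1 peaks were narrow and together covered a median of 10.4% of the length of the removed DMRs that had one in DKO0.

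**Figure D5:**
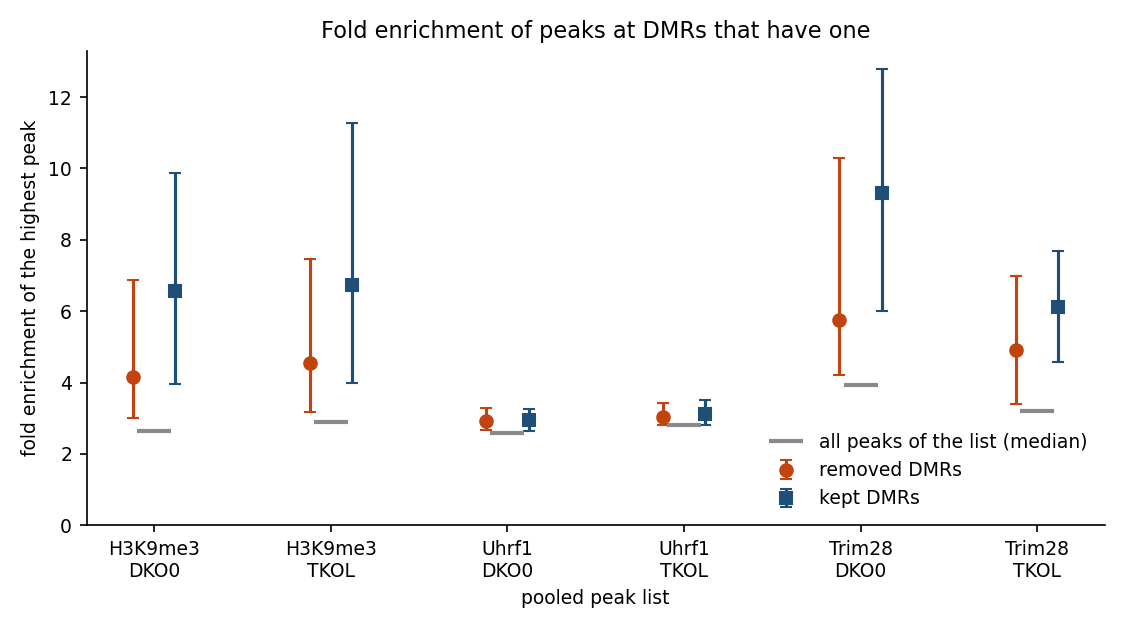
Fold enrichment of the highest peak at removed (red) and kept (blue) DMRs that have one, as median with interquartile range, for the 6 pooled lists, with the median of all peaks in grey. Kept DMRs have the higher median for H3K9me3 and Trim28 in these pooled lists, and the ranges overlap in all of them.

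Outside chromosome 18, the longest removed DMRs held IAPEz words and all 3 marks. DMR_1144 (chr17:61154251-61166500, mm9) spanned 12250 bp with 187 CpGs, 45.8% unique words and 19 positions that match a word of the IAPEz reference. This DMR lay 1787033 bp from Efna5, which encodes an ephrin ligand. It had a peak in 22 of 24 lists, with an H3K9me3 enrichment of 9.60 in DKO0 and 9.25 in TKOL. DMR_246 (chr10:34457001-34468500) spanned 11500 bp, 125969 bp from Frk, a Src-related kinase, and DMR_1632 (chr3:74394251-74404000) spanned 9750 bp, 437829 bp from Zbbx. Both had a peak in 23 lists, with 37 and 32 positions that match an IAPEz word and an H3K9me3 enrichment in DKO0 of 9.53 and 9.83.

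Those with the highest table values held no IAPEz word. DMR_1686 (chr3:132715001-132718000), whose tandem repeat is printed above, lay in an intron of Gstcd with a value of 0.274 and 97.5% unique words, and had no peak in any list. DMR_777 (chr13:120277001-120284312) had a value of 0.268, held 216 CpGs and overlapped the genes 3110070M22Rik and Gm7120, exonic sequence included. It had a peak in 14 lists, with a low H3K9me3 enrichment of 2.62 in DKO0 and 3.07 in TKOL. DMR_202 (chr1:189499251-189500250), in an intron of the orphan nuclear receptor gene Esrrg, had a value of 0.267, 12 CpGs and a peak in 1 list, a Uhrf1 list of WT. Next among DMRs without any peak were DMR_129 (chr1:114502001-114505000), 740515 bp from Dsel, with a value of 0.265, and DMR_138 (chr1:120390501-120392250), in an intron of Clasp1, which encodes a microtubule-binding protein, with a value of 0.262.

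Among removed DMRs outside chromosome 18 with all 3 marks in both pooled lists, DMR_1939 (chr5:38522501-38526750) had the highest H3K9me3 enrichment in the pooled DKO0 list, 13, with 12.8 in that of TKOL. It overlapped an exon of Stx18, a syntaxin of the endoplasmic reticulum. Its Trim28 enrichment was 22.2 in DKO0 and 9.17 in TKOL, and its Uhrf1 enrichment 3.29 in both. DMR_332 (chr10:113161501-113166500), 669379 bp from Trhde, held no unique word, and its median word had 921 copies. Short reads of such sequence can align to several places, so its peaks may hold reads of other copies, which was not tested. DMR_332 had an H3K9me3 enrichment of 13 in DKO0 and 16.6 in TKOL. It was 1 of 10 removed DMRs (1.17%) with a peak in all 24 lists, against 80 kept DMRs (7%). Its 6 single-replicate H3K9me3 values were 2.75 and 2.72 in DKO0, 2.32 and 2.67 in TKOL, and 3.31 and 2.87 in WT. The medians of all peaks of these lists were 2.63 and 3.39 in DKO0, 2.92 and 3.45 in TKOL, and 3.24 and 3.35 in WT. In single replicates DMR_332 thus lay near or below the median peak, and its high rank holds for the pooled lists only. DMR_125 (chr1:113154501-113158000), 280552 bp from the cadherin gene Cdh19, held 161 positions that match an IAPEz word, repeated words included. It had an H3K9me3 enrichment of 12.5 in DKO0 and 14.3 in TKOL, and a peak in 21 lists.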

How the data were processed

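The members and lists were chosen with earlier results of these data known. DMR coordinates and values came from the study's supplementary table, whose starts count from 0 and are printed from 1. Per the labels, ChIP reads were processed with BWA, GATK and MACS2 on mm9. The authors deposited broad peaks with a fold enrichment (a ratio to background) and the -log10 of p-value and q-value. Pooled lists came from merged replicates with input. For single-replicate lists, the use of input is not given in the sources used here, so their fold values are not compared with pooled ones. Whether replicates were separate cultures is not given either. No reads were counted. The study gives a target depth per library, and the depth reached is not in the peak lists.

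An overlap was at least 1 bp. Stretches of each DMR's length were placed at 1000 evenly spaced places of its chromosome between the first and last peak (100 places for CpGs and genes, 20 for words). Counts were checked with bedtools 2.31.1, and 0 of 48 differed. CpGs and words were read from the NCBIM37 genome (mm9) and genes from GENCODE of that build. The scripts were tested on simulated data. The DMRs named are the 3 longest, the 3 with the highest table value, the 3 with the highest DKO0 H3K9me3 enrichment among those with all marks in both pooled lists, and the 3 with the highest value and no peak. DMRs of chromosome 18 were counted but left out of these rankings. Wilson intervals and exact permutation tests used scipy 1.17.1 under Python 3.11.15.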

Additional observations from a re-analysis of the deposited data

How the results depend on the processing

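Removed DMRs stayed below kept DMRs in all 72 values under the alternatives tried, and above stretches in 43 of 45. The differences below are in percentage points, removed minus kept. Values that moved by less than the spread between replicates are left out, except in the ranges over single lists. Those ranges give both ends where at least 1 end moved by more than the spread. With at least 50% of the length covered the difference was H3K9me3 -5.63 (WT), Uhrf1 -1.49 (DKO0), -1.49 (TKOL), -3.12 (WT) and Trim28 -25.2 (DKO0), -30.5 (TKOL), -1.87 (WT). With peaks limited to a -log10 q-value from 5 upwards the difference was H3K9me3 -4.58 (WT), Uhrf1 -6.27 (DKO0), -5.74 (TKOL), -7.36 (WT) and Trim28 -35.9 (TKOL), -7.62 (WT). For DMRs of 1000 bp only the difference was H3K9me3 -49.3 (DKO0), -23.8 (WT), Uhrf1 -12.9 (DKO0), -15.8 (TKOL), -21.1 (WT) and Trim28 -22.3 (DKO0), -30.1 (TKOL), -12.9 (WT). With a peak in both replicates the difference was H3K9me3 -32.7 (DKO0), -31.6 (TKOL), Uhrf1 -12.1 (DKO0), -13.9 (TKOL), -32.0 (WT) and Trim28 -29.8 (DKO0), -29.6 (TKOL), -23.6 (WT). Without chromosome 5 the difference was Uhrf1 -32.6 (WT). With each replicate's list alone the difference was H3K9me3 in DKO0 -37.3 to -33.5, H3K9me3 in TKOL -39.7 to -31.5, Uhrf1 in DKO0 -19.3 to -14.6, Uhrf1 in TKOL -25.3 to -16.6, Trim28 in DKO0 -32.5 to -30.7, Trim28 in TKOL -36.4 to -30.7. The ratio of removed DMRs to stretches was H3K9me3 4.74 (DKO0), 4.64 (TKOL), 6.33 (WT), Uhrf1 3.81 (TKOL), 4.53 (WT) and Trim28 3.95 (DKO0), 3.96 (TKOL), 5.34 (WT) against stretches with at least 10 CpGs. It was H3K9me3 11.2 (DKO0), 11.5 (TKOL), 18.3 (WT), Uhrf1 0 (DKO0), 0 (TKOL), 9.91 (WT) and Trim28 12.3 (DKO0), 11.4 (TKOL), 22.3 (WT) with at least 50% covered, where 0 means that no removed DMR was covered to that extent by the narrow Uhrf1 peaks. It was H3K9me3 11 (DKO0), 12.1 (TKOL), 18.9 (WT), Uhrf1 11.8 (DKO0), 8.51 (TKOL), 21.1 (WT) and Trim28 10.9 (DKO0), 12.7 (TKOL), 24.9 (WT) for a -log10 q-value from 5 upwards, and with single lists H3K9me3 in DKO0 8.68 to 8.72, H3K9me3 in TKOL 8.11 to 8.71, Uhrf1 in DKO0 5.87 to 9.97, Uhrf1 in TKOL 6.33 to 6.99, Trim28 in DKO0 9.68 to 10.6, Trim28 in TKOL 7.51 to 9.53.

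For DKO0 minus TKOL, the Uhrf1 difference changed sign for a -log10 q-value from 5 upwards (0.234), and the Trim28 difference changed sign with the same number of peaks per list (1.81) and ranged from -3.5 to 0.35 with each replicate left out, without replicate 2 and without replicate 1. The cause was not tested. With the replicate number as a block, the differences were 5.37, -1.29 and -1.58 points for H3K9me3, Uhrf1 and Trim28 (n = 2, exact sign-flip permutation p of 0.5, 0.5 and 1), and 2 pairs cannot go below 0.5. The labels do not say that same-numbered samples were paired. The table before filtering was held in part, so 202 removed DMRs on other chromosomes were not analysed here. The peak lists carry no read counts.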
